A study of Mus musculus with 12 samples.

Results

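Clusterin (Clu) and 8 complement genes were followed in the hearts of mice lacking cytochrome b5 reductase 3 (CYB5R3), a flavoprotein that passes electrons from NADH to heme proteins and coenzyme Q, in cardiomyocytes. The 9 genes were Clu, C3, C4b, C7, Cfd, Serping1, Cd55, Cd59a and Masp1, of 53700 genes counted. The list was chosen by the level of Clu, which was higher in knockout hearts in these same libraries, so the genotype difference of Clu is given as a description with no test. All 9 genes were found by symbol, and 8 had enough counts to enter the test across 17847 genes. Cfd had too few.

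Heart RNA came from 6 ac-WT mice (CYB5R3wt/wt, Myh6-CreERT2) and 6 ac-CYB5R3–KO mice (CYB5R3fl/fl, Myh6-CreERT2). Both groups carried the tamoxifen-inducible Cre recombinase under the cardiomyocyte Myh6 promoter. Male mice of both genotypes received tamoxifen at 33 mg/kg per day for 5 days from 10 to 13 weeks of age, and hearts were taken 5 days after the last dose. The genotype comparison therefore holds Cre and tamoxifen constant, and other cells of the heart keep Cyb5r3. Stranded total RNA libraries were made from pulverized frozen tissue and read as unpaired 75 base reads.

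Complement is a cascade of plasma and cell surface proteins. The classical pathway starts from C1q bound to antibody or to dying cells, the lectin pathway from collectins and ficolins carrying the MASP proteases, and the alternative pathway from spontaneous turnover of C3 amplified by factor B and factor D. All meet at C3, whose activation leads to the terminal proteins C5 to C9, which insert into membranes. Much plasma complement is made in the liver, while heart fibroblasts, endothelial cells and macrophages also make components. Clusterin is a secreted chaperone that binds unfolded proteins and also keeps the assembling terminal complex out of membranes.

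Cyb5r3 itself was 126 ± 38.4 CPM (counts relative to library size, scaled by the trimmed mean of M values, TMM) in ac-WT and 53.7 ± 9.07 CPM in ac-CYB5R3–KO hearts (mean ± SD, n = 6 each, as throughout). The log2 fold change was −1.22 ± 0.19 (SE, as throughout; edgeR quasi-likelihood test, adjusted p = 0.0450), and the groups did not overlap. Under total counts it was −1.03 (edgeR adjusted p = 0.315), and leaving out any of ac-WT mice 3 and 5 and knockout mice 1 to 5 took the adjusted p over 0.05, at −1.31 to −1.08 over all omissions. Total counts ran from 43393183 to 53754284 per library. TMM factors were 1.04 to 1.22 in the knockout group and 0.570 to 1.13 in ac-WT, where mice 2 and 3 had the lowest, 0.570 and 0.723. Scaling to total counts instead moved the median over all genes from −0.01 to 0.26 on the log2 scale. The 8 cardiomyocyte markers summed to 16799 to 32809 CPM in ac-WT and 12844 to 23021 CPM in knockout hearts. ac-WT mice 2 and 3 had the highest sums, 32809 and 28849 CPM, with the other ac-WT hearts at 16799 to 21606 CPM. Of the 8 markers, Tnni3 was lower at an unadjusted p under 0.01 (2422 ± 1300 and 1202 ± 207 CPM), beside 3.27% of all genes tested. Its groups did not overlap, beside 1.04% of all genes on the lower side. Myh6, whose promoter drives Cre, was lower at p under 0.05 (6243 ± 2960 and 3704 ± 969 CPM), which 14.6% of all genes passed in either direction. Both were highest in ac-WT mice 2 and 3, at 4805 and 3063 CPM for Tnni3 and 10257 and 9727 CPM for Myh6. Positive log2 fold changes were found for 2 of the 8. The study describes the tissue as whole heart. Of 6 atrial markers, Nppa, also made by stressed ventricle, had 442714 counts over all libraries, Myl4 3838, Myl7 504, Mybphl 54, Bmp10 10 and Sln 6.

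Clu was the most abundant of the 9 genes. Of the 8 tested members Clu, whose rise chose the list, had the highest log2 fold change, close to the 1.07 ± 0.34 of Masp1. In ac-WT hearts it ran from 734 CPM over a median of 1367 to 2374 CPM, and in ac-CYB5R3–KO hearts from 1881 over 2558 to 5296 CPM. All 6 knockout hearts lay above the ac-WT median, but the groups overlapped, since knockout mouse 3 (1881 CPM) lay below ac-WT mice 4 (1967 CPM) and 5 (2374 CPM). The means were 1434 ± 644 and 3084 ± 1241 CPM, a 2.15-fold difference, with a log2 fold change of 1.10 ± 0.32. This placed Clu at rank 100 from the top of the 17847 genes tested. The knockout mean drew much on mouse 2 at 5296 CPM and mouse 4 at 3738 CPM, and the ac-WT mean on the low values of mice 2 (734 CPM) and 3 (794 CPM). Without those 2 ac-WT mice the log2 fold change was 0.82. Leaving out any 1 mouse gave 0.89 to 1.31. The gene lies on chromosome 14 at 66587320 to 66600385 on the plus strand (NCBIM37, the mm9 assembly, whose coordinates are used for all genes here). In bulk heart RNA, a change in the number of cells of a type and in RNA per cell cannot be told apart.

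**Figure D1:**
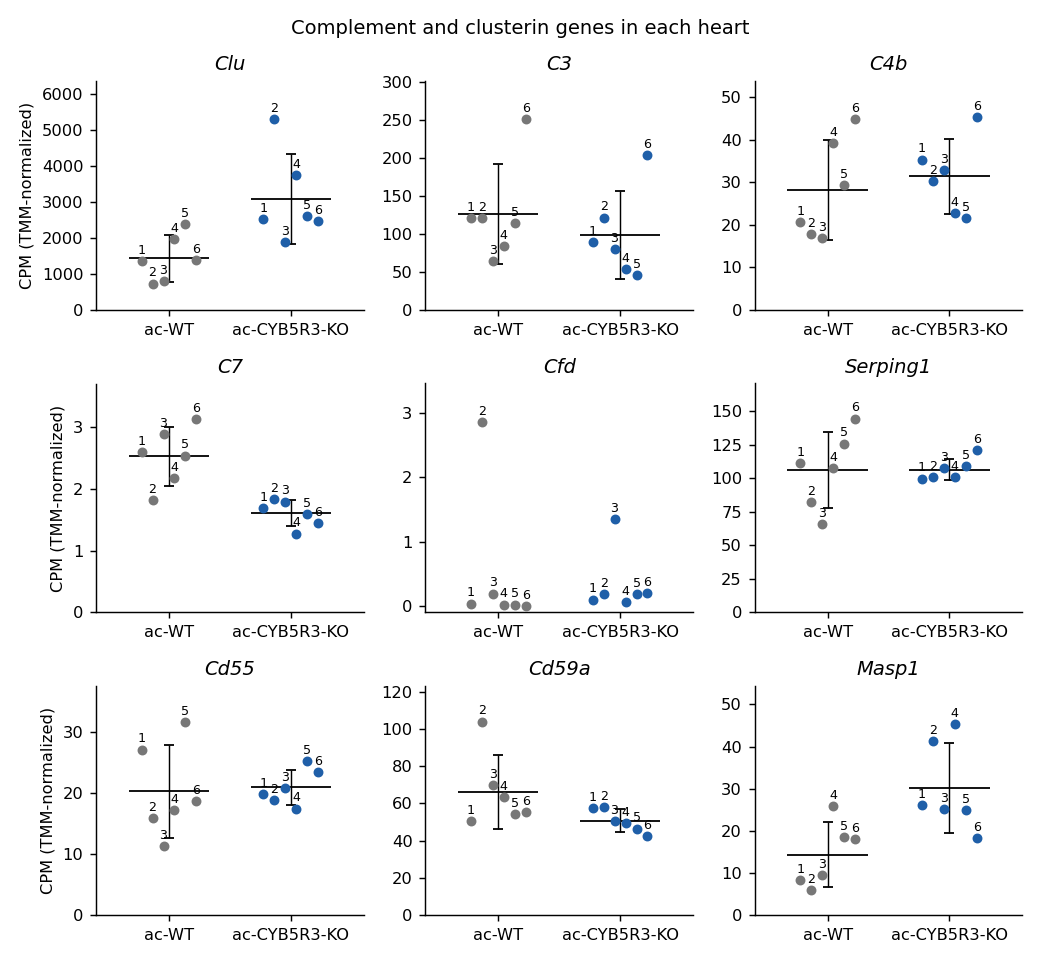
Normalized expression (CPM, linear axis from 0, except for a margin below 0 for Cfd) of the 9 genes in each ac-WT (grey) and ac-CYB5R3–KO (blue) heart, with a line and bar for mean ± SD, left out for Cfd. Clu and Masp1 sit above the ac-WT median in all 6 knockout hearts, with overlap between the groups. C7 sits lower with only mouse 2 of each group crossing, and the other genes overlap widely.

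Of the 7 tested genes other than Clu, 0 had an adjusted p under 0.05 in edgeR, where 0.101% of all genes did (0.0392% higher and 0.0616% lower). At an unadjusted p under 0.01, Masp1 was higher and C7 lower in knockout hearts, beside 4.59% of all genes tested (1.33% higher and 3.27% lower). At an unadjusted p under 0.05 Cd59a joined on the lower side, beside 14.6% of all genes. Nothing is read from these shares, since the contrast was already used to choose the list. On the log2 scale, the median difference of these 7 genes was 0.00, and that of every gene tested −0.01. None of the 9 genes had groups without overlap, as 1.55% of all genes tested had (0.51% higher and 1.04% lower in knockout hearts).

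Masp1 codes for serine proteases that start the lectin pathway and, in the splice form MASP-3, process factor D. The counts do not separate its splice forms. Its level was 5.80 to 25.9 CPM in ac-WT hearts (median 13.8 CPM) and 18.2 to 45.3 CPM in knockout hearts (median 25.6 CPM). ac-WT mice 1, 2 and 3 were the 3 lowest of the 12 hearts at 8.35, 5.80 and 9.44 CPM, and knockout mice 4 and 2 the highest at 45.3 and 41.3 CPM. The other 7 hearts lay between 18.1 and 26.0 CPM with the genotypes mixed. The log2 fold change was 1.07 ± 0.34 (edgeR p = 0.00728, adjusted p = 0.203), and permuting the mice between the groups gave an exact two-sided p of 0.0216. Without ac-WT mice 2 and 3 it was 0.78 (edgeR p = 0.0269, exact permutation p = 0.0762). The edgeR p was also above 0.01 when any of ac-WT mice 1, 2 and 3 or knockout mice 2 and 4 was left out, with log2 fold changes of 0.92 to 1.32 over all 12 omissions. The gene lies on the minus strand of chromosome 16 at 23449490 to 23520676.

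C7, the terminal component that anchors the assembling complex in the membrane, was scarce. Its libraries held 52 to 165 counts each and 1207 in all. ac-WT hearts ran from 1.82 over a median of 2.57 to 3.13 CPM, and knockout hearts from 1.27 over 1.65 to 1.84 CPM. All 6 knockout hearts lay below the ac-WT median, and the groups crossed only at ac-WT mouse 2 (1.82 CPM) and knockout mouse 2 (1.84 CPM). The log2 fold change was −0.65 ± 0.16 (edgeR p = 0.00118, adjusted p = 0.173), and the exact permutation p was 0.00433, beside a smallest possible value of 0.00216. DESeq2 gave an adjusted p of 0.00751, in a fit that called 451 genes against 18 in edgeR, and the adjusted p ran from 0.00751 to 0.417 over all alternatives. Under scaling to total counts the log2 fold change was −0.41 (edgeR p = 0.135, exact permutation p = 0.184), or −0.66 relative to the shifted median of all genes. C7 lies on the minus strand of chromosome 15 at 4938762 to 5013740, where a U6 gene is annotated on the opposite strand.

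**Figure D2:**
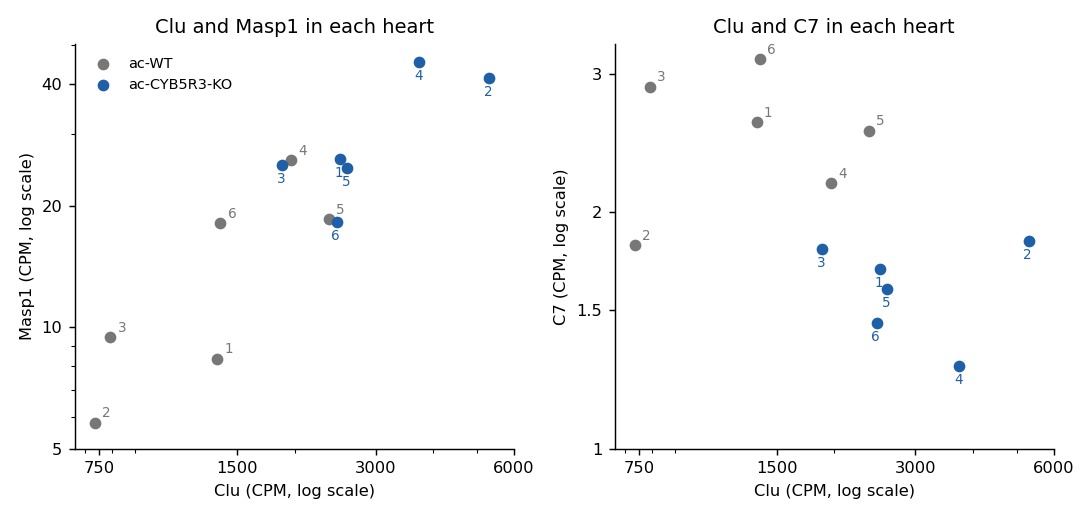
Masp1 (left) and C7 (right) against Clu in each heart, all in CPM on log axes, with mouse numbers beside the points. ac-WT mice 2 and 3 are low for both Clu and Masp1, knockout mice 2 and 4 are high for both, and the knockout hearts sit below 1.85 CPM in C7 whatever their Clu level.

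Promoters from the RefSeq table (build GRCm38.p6) were found for 5 of the 9 genes, namely C3, C7, Cfd, Cd55 and Cd59a. The 250 bases before the start are printed for C7, which had the lowest p of the tested genes, and for C3, where the pathways meet. Motifs searched on both strands were the TATA box letters TATAA, the CCAAT box, the C/EBP letters TTNNGNAA, the STAT letters TTCNNNGAA and an NF-kB motif, and matches are in capitals.
C7 (chr15:5063774-5064023, minus strand): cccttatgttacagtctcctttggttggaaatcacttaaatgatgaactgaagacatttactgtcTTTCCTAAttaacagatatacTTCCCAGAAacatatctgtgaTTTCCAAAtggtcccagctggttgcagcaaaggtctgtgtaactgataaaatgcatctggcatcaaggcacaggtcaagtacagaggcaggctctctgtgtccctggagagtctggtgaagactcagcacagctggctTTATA
C3 (chr17:57228137-57228386, minus strand): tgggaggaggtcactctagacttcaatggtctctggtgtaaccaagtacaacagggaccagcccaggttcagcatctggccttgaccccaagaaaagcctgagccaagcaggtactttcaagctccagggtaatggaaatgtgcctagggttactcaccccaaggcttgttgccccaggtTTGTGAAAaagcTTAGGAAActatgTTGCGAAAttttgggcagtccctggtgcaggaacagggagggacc
In C3 the 3 capital stretches all match TTNNGNAA, between positions −70 and −38 from the start. C7 has 2 matches to it, a STAT match at −164 to −156 and TATAA read on the other strand at −5 to −1. Of all 32851 promoters in the table, 36.8% hold TTNNGNAA, 7.02% the STAT letters, 22.8% TATAA, 33.8% CCAAT and 1.41% the NF-kB motif. A match in these letters is a description of the sequence only.

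C3, the central component, did not pass the test in either direction. ac-WT hearts ran from 64.0 over a median of 118 to 252 CPM and knockout hearts from 45.4 over 84.5 to 204 CPM. Mouse 6 was the highest of its group in both genotypes, and the ranges covered each other widely. The log2 fold change was −0.35 ± 0.38 (edgeR adjusted p = 0.678) with a 95% interval of −1.16 to 0.46, so a difference of either sign was within the spread between mice. It was −0.03 without ac-WT mouse 6, −0.69 without knockout mouse 6 and −0.14 under scaling to total counts (−0.40 relative to the shifted median). C4b, the classical and lectin pathway component cleaved beside C3, ran from 16.9 to 44.8 CPM in ac-WT and 21.6 to 45.3 CPM in knockout hearts. Its log2 fold change was 0.16 ± 0.26 (edgeR adjusted p = 0.798), and −0.08 without ac-WT mice 2 and 3. C4b shares much of its sequence with its neighbour C4a, so the split of reads between them is uncertain. C4a was 7.87 ± 2.83 CPM in ac-WT and 8.33 ± 1.85 CPM in knockout hearts. C3 lies on the minus strand of chromosome 17 at 57343397 to 57367559 and C4b at 34865325 to 34880827 of the same strand.

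Among the inhibitors, Serping1, which codes for the C1 inhibitor that blocks C1r, C1s and the MASP proteases, had equal means. It was 106 ± 28.6 CPM in ac-WT and 106 ± 8.05 CPM in knockout hearts, with a log2 fold change of 0.00 ± 0.16 and a 95% interval of −0.34 to 0.35 (edgeR adjusted p = 0.993). The ac-WT hearts spread from 65.7 to 144 CPM and enclosed the knockout range of 99.6 to 121 CPM. Cd55, decay-accelerating factor, which breaks up C3 convertases on the cell surface, was 20.2 ± 7.58 CPM and 20.9 ± 2.91 CPM, a log2 fold change of 0.04 ± 0.21 with an interval of −0.41 to 0.49 (edgeR adjusted p = 0.938). Here too the knockout range, 17.4 to 25.1 CPM, lay inside that of ac-WT, 11.2 to 31.6 CPM. Both genes turned negative without ac-WT mice 2 and 3, at −0.19 for Serping1 and −0.16 for Cd55. Cd55 overlaps an antisense gene, Gm16083, and whether the counting used strand is not given in the sources used here. Its paralog Cd55b had 367 counts in all libraries together.

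Cd59a, the membrane inhibitor of the terminal complex, was 50.4 to 104 CPM in ac-WT (median 59.4 CPM) and 42.3 to 57.9 CPM in knockout hearts (median 49.8 CPM). All 6 knockout hearts lay below the ac-WT median. The highest value was that of ac-WT mouse 2 at 104 CPM. The log2 fold change was −0.39 ± 0.17 (edgeR p = 0.0353, adjusted p = 0.302), and the exact permutation p was 0.0498. It was −0.13 without ac-WT mice 2 and 3, −0.05 under scaling to total counts (−0.30 relative to the shifted median) and −0.36 with the reads of the paralog Cd59b added. Cd59b was 3.15 ± 0.57 CPM in ac-WT and 3.30 ± 0.72 CPM in knockout hearts.

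Cfd, which codes for factor D (adipsin), the fat-derived protease of the alternative pathway, had 212 counts in all libraries together. ac-WT mouse 2 held 82 and knockout mouse 3 held 80 of them, and the other 10 hearts held 0 to 11 counts. All 6 knockout hearts lay above the ac-WT median of 0.029 CPM. The mean difference on log2(CPM + 1) was −0.02 (exact permutation p = 0.987), and it depended on ac-WT mouse 2, knockout mouse 3, the scaling and the pseudocount. Without ac-WT mouse 2 it was 0.30 (exact permutation p = 0.0736), and without knockout mouse 3 −0.19 (exact permutation p = 0.983). With a pseudocount of 0.1 it was 0.46 (exact permutation p = 0.569), and under total counts 0.13 (exact permutation p = 0.470). Of 8 adipocyte markers 7 were too low to test, with 23 counts of Adipoq, 24 of Plin1, 29 of Cidec, 1 of Lep, 16 of Retn, 8 of Ucp1 and 158 of Car3 in all. Those of Car3 lay mostly in the same hearts as Cfd, with 66 in ac-WT mouse 2 and 49 in knockout mouse 3. ac-WT mouse 2 held 16 of those of Adipoq and 17 of those of Cidec, and knockout mouse 3 held 1 and 6. Plin4, which had 37381 counts, made up most of the list, which summed to 39.6 to 204 CPM in ac-WT and 33.6 to 57.5 CPM in knockout hearts. Their part in the Cfd counts was not tested.

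Per kilobase of merged exons, the 9 genes spanned more than 3 orders of magnitude. Clu averaged 657 CPM per kb over the 12 hearts (214 to 1541), which put it at rank 78 of 15527 genes with a length, and its range did not touch that of the next gene, Serping1, at 45.7 CPM per kb. Cd59a followed at 32.3 and C3 at 21.9 CPM per kb. The next was C4b at 5.22 CPM per kb, and the ranges of C3 and C4b did not overlap. Cd55 had 4.24, Masp1 3.70, C7 0.772 and Cfd 0.472 CPM per kb. The other neighbours in this order had overlapping ranges.

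The rest of the pathway was read from 49 further complement genes, of which 48 were found and 32 tested. In edgeR 0 had an adjusted p under 0.05 or an unadjusted p under 0.01, beside 0.101% and 4.59% of all genes tested. DESeq2 also called 0 at both, where it called 451 and 1238 of all 17847 genes. Of the log2 fold changes 12 were positive and 20 negative, with a median of −0.08, where 48.8% of all genes were positive. At an unadjusted p under 0.05 edgeR had 2 higher and 2 lower, beside 14.6% of all genes. The 4 genes, named after their values were seen, were Cfi and C5ar2 on the higher side and Vtn and Colec11 on the lower side. Cfi, the protease that inactivates C3b and C4b, was 0.642 ± 0.42 CPM in ac-WT and 1.55 ± 0.77 CPM in knockout hearts (log2 fold change 1.24 ± 0.53, edgeR adjusted p = 0.306). C5ar2, a receptor for C5a, was 1.03 ± 0.41 and 1.62 ± 0.40 CPM (0.63 ± 0.26, edgeR adjusted p = 0.288). Vtn, vitronectin, which like clusterin binds the soluble terminal complex, was 10.5 ± 4.92 and 6.68 ± 1.20 CPM (−0.64 ± 0.26, edgeR adjusted p = 0.272). Its exact permutation p was 0.0844, ac-WT mouse 2 was highest at 19.3 CPM, and the log2 fold change was −0.78 to −0.27 over all alternatives. Colec11, a lectin pathway recognition protein, was 7.34 ± 1.42 and 5.77 ± 1.06 CPM (−0.34 ± 0.16, edgeR adjusted p = 0.330). Its log2 fold change was −0.42 to −0.05 over all alternatives.

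By branch, 8 classical pathway genes were tested, with 3 positive and 5 negative log2 fold changes from −0.25 to 0.08. Beside C1q they included the proteases C1ra at 25.0 ± 6.50 CPM in ac-WT and 23.6 ± 2.48 CPM in knockout hearts, and C1s1 at 23.4 ± 4.26 and 20.8 ± 1.85 CPM. C2 was low, at 1.42 ± 0.67 and 1.20 ± 0.61 CPM. In the lectin pathway 3 of 8 genes were tested. Colec12 had a log2 fold change of 0.08 ± 0.25, and Fcna, a ficolin named after its value was seen as the lowest of the tested complement genes, was 2.33 ± 1.23 CPM in ac-WT and 1.26 ± 0.91 CPM in knockout hearts (−0.89 ± 0.44, edgeR adjusted p = 0.365). The recognition genes Mbl1 and Mbl2 had 0 and 1 count in all libraries together. In the alternative pathway, Cfb, factor B, had 41 counts in all, while Cfp, properdin, was 10.2 ± 2.42 CPM in ac-WT and 7.07 ± 3.61 CPM in knockout hearts (log2 fold change −0.52 ± 0.30, edgeR adjusted p = 0.431). Of the terminal genes beside C7, Hc, which codes for C5, had 35 counts in all, C9 had 4 and C8b had 0. C6 was 0.469 ± 0.28 CPM in ac-WT and 0.440 ± 0.22 CPM in knockout hearts. Among the regulators, Cr1l, the rodent membrane regulator Crry, was 36.1 ± 3.40 and 35.1 ± 1.22 CPM, and Cd46 was 0.748 ± 0.49 and 0.615 ± 0.31 CPM. The anaphylatoxin receptors C3ar1 and C5ar1 had log2 fold changes of −0.04 ± 0.42 and 0.00 ± 0.34. None of the genes of this paragraph passed the test.

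**Figure D3:**
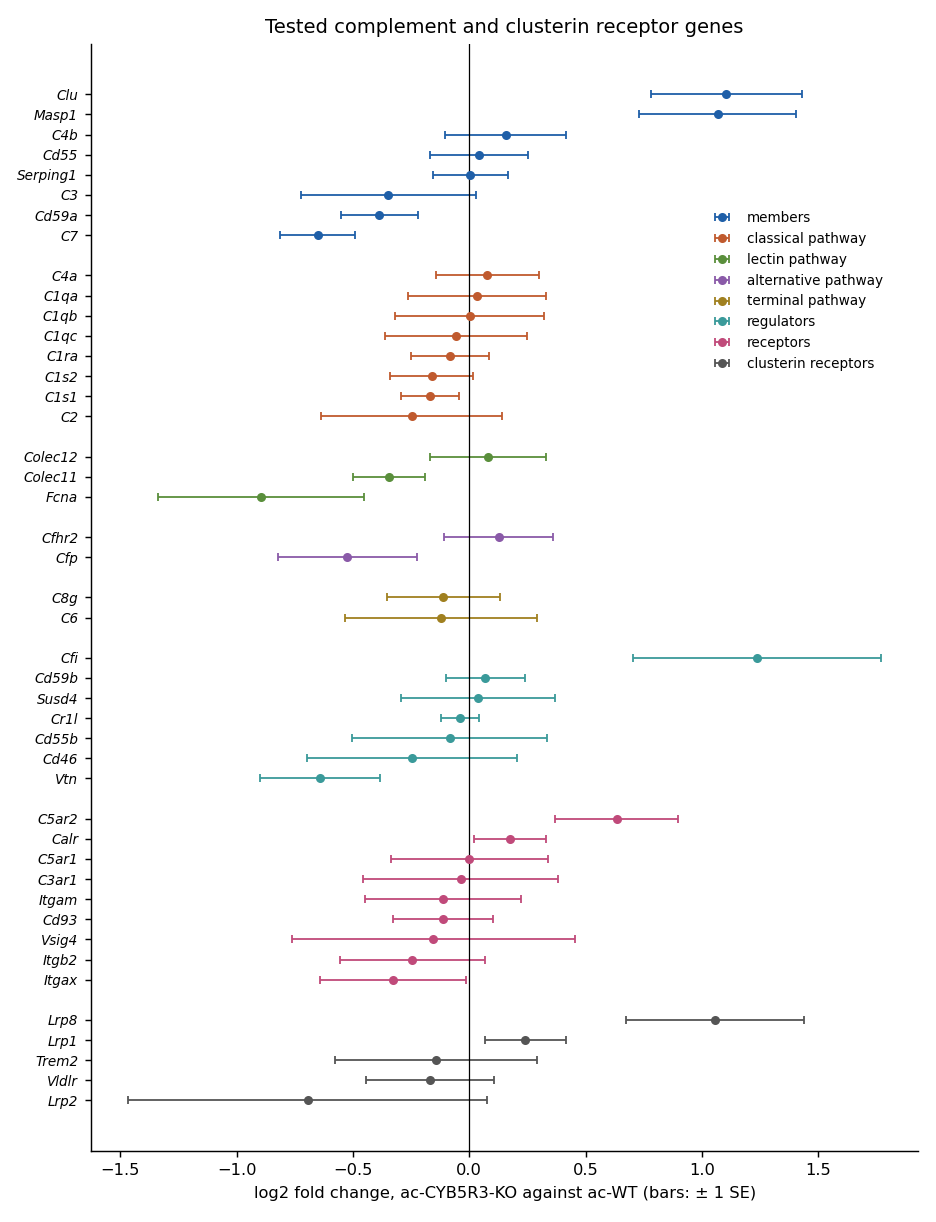
Log2 fold change (ac-CYB5R3–KO against ac-WT, TMM) of tested complement and clusterin receptor genes by branch, with 1 regulator not shown, with bars of ± 1 SE. Clu, Masp1, Lrp8 and Cfi sit above 1, C7 and Vtn near −0.65, Lrp2 at −0.69 and Fcna lowest at −0.89, and the classical pathway genes between −0.25 and 0.08.

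The C1q genes, made chiefly by macrophages, showed the spread among ac-WT hearts plainly. C1qa ran from 49.0 to 171 CPM in ac-WT, with mice 1, 2 and 3 at 72.3, 57.5 and 49.0 CPM and mice 4, 5 and 6 at 163, 153 and 171 CPM. The 6 knockout hearts, at 94.1 to 145 CPM, all lay in the gap between them. C1qb ran from 55.1 to 197 CPM and C1qc from 54.4 to 178 CPM in ac-WT, against 113 to 170 CPM and 96.5 to 159 CPM in knockout hearts. The log2 fold changes of the 3 genes were 0.03, 0.00 and −0.06 with SE of 0.30, 0.32 and 0.31. The 8 macrophage markers summed to 315 to 472 CPM in ac-WT mice 1 to 3 and 1153 to 1303 CPM in ac-WT mice 4 to 6. In the knockout group they summed to 466 to 852 CPM. Lyz2 made up most of these sums, at 547 ± 344 CPM in ac-WT and 388 ± 86.1 CPM in knockout hearts. Of the 8 log2 fold changes 1 was positive and 7 negative, with a median of −0.28. Only Cd163 of the 8 had an unadjusted p under 0.01, on the lower side, beside 3.27% of all genes. Whether macrophage number set the C1q levels was not tested.

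Of 5 receptors and binding partners of clusterin, Lrp8 (apolipoprotein E receptor 2) had an unadjusted p under 0.05, beside 14.6% of all genes, and is named here after its values were seen. It ran from 0.594 over a median of 2.97 to 5.17 CPM in ac-WT and from 3.21 over 5.55 to 8.35 CPM in knockout hearts, so the groups overlapped. All 6 knockout hearts lay above the ac-WT median. The log2 fold change was 1.06 ± 0.38 (edgeR p = 0.0153, adjusted p = 0.241, exact permutation p = 0.0238). Lrp1 had 0.24 ± 0.17, Vldlr −0.17 ± 0.27, Trem2 −0.14 ± 0.44 and Lrp2, with 228 counts in all, −0.69 ± 0.77.

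With each group's mean subtracted from log2(CPM + 1), the 5 genes whose pattern over the 12 mice was most like that of Clu were ENSMUSG00000107761, which has no symbol in the tables used, Cnp, a myelin and microtubule-associated enzyme, Usp9x, a deubiquitinase, Gpc4, a heparan sulfate proteoglycan, and 1110059G10Rik. Their Pearson r with Clu was 0.933 to 0.950 and Spearman rho 0.944 to 0.965, and without knockout mouse 2 and ac-WT mouse 5, the farthest from the Clu median, r was 0.885 to 0.956. The points share libraries and scaling, and the 5 were picked as the highest of 17846. Their own log2 fold changes between genotypes were only −0.09 to 0.32. ENSMUSG00000107761 was near the floor, at 0.285 CPM in ac-WT and 0.274 CPM in knockout hearts. Masp1 had r = 0.808 and rho = 0.811, at rank 236. The other members ran from r = −0.399 for Cd59a to 0.508 for Serping1.

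Marker lists that moved with the genotypes stand beside these results. Of 11 cartilage markers 7 were tested, and Col2a1, Col9a2, Col11a1 and Comp were higher in knockout hearts at an unadjusted p under 0.01, beside 1.33% of all genes. Of the other tested genes, Acan had a log2 fold change of 0.81 ± 0.33, Col9a3 −0.11 ± 0.29 and Cnmd −0.86 ± 0.46. The list summed to 6.18 to 53.1 CPM in ac-WT and 70.7 to 151 CPM in knockout hearts, with no overlap and with the lowest sums in ac-WT mice 2 and 3. The defining genes Col9a1, Matn1 and Hapln1 had 2, 27 and 27 counts in all. Of 4 red blood cell markers found, 3 were higher at an unadjusted p under 0.05, which 14.6% of all genes passed in either direction, and they summed to 222 to 4486 CPM in ac-WT and 1323 to 12226 CPM in knockout hearts. Of 5 smooth muscle markers, Acta2 and Myh11 were lower at an unadjusted p under 0.01, beside 3.27% of all genes, and Smtn was lower and Cnn1 higher at p under 0.05. Cnn1 was 15.8 ± 9.42 CPM in ac-WT and 32.5 ± 14.7 CPM in knockout hearts, and Tagln had a log2 fold change of 0.18 ± 0.30. The list summed to 154 to 300.1 CPM in ac-WT and 131 to 180 CPM in knockout hearts. Of 7 lymphocyte markers 6 were tested, and the T cell genes Cd8a and Cd3d were higher at an unadjusted p under 0.01, beside 1.33% of all genes. Cd8a was 0.279 ± 0.15 CPM in ac-WT and 0.768 ± 0.12 CPM in knockout hearts. It was higher without overlap, beside 0.51% of all genes. Cd3d was 0.280 ± 0.11 and 0.554 ± 0.17 CPM. The lymphocyte list summed to 1.33 to 2.98 CPM and 2.85 to 4.17 CPM. Fibroblast markers summed to 1609 to 4329 CPM and 2528 to 3895 CPM. Of these 8, Gsn was lower at an unadjusted p under 0.01, beside 3.27% of all genes, and 3 had positive log2 fold changes. Hepatocyte markers never summed to more than 1.40 CPM. The part of these cell types in the levels of Clu, Masp1 and C7 was not tested.

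**Figure D4:**
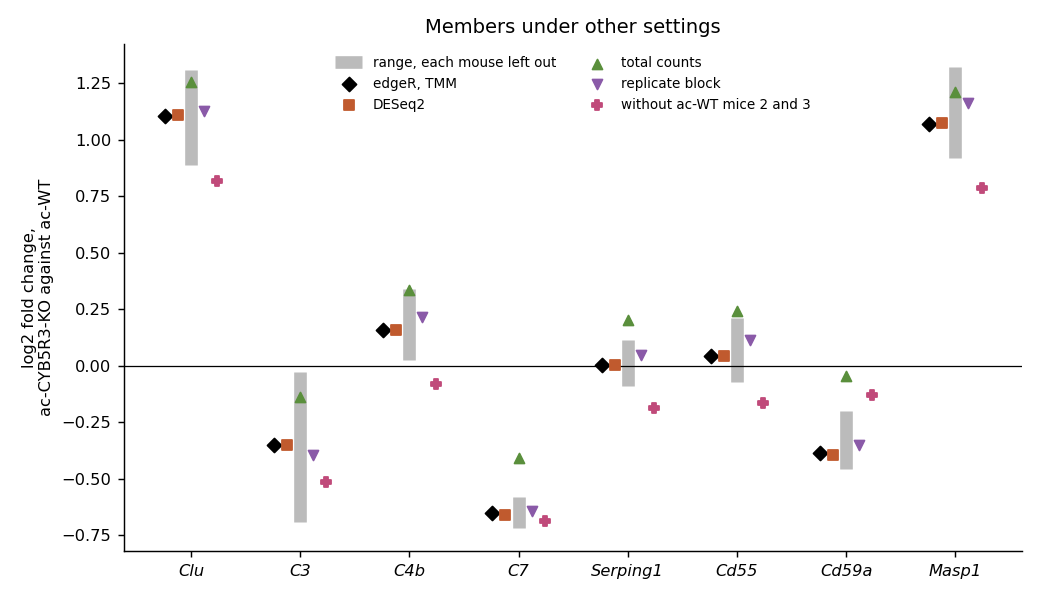
Log2 fold change of the 8 tested members under edgeR with TMM, DESeq2, total counts, the replicate block and without ac-WT mice 2 and 3, with the range over leaving out each of the 12 mice. Clu, whose rise chose the list, and Masp1 stay above 0.75 in all of them. C7 stays below −0.40, while C4b, Serping1 and Cd55 cross 0.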

How the data were processed

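The deposited file holds raw counts, a whole number of reads per gene, for 53700 Ensembl genes in 12 libraries, neither normalized nor filtered. The submitters' processing notes name STAR, featureCounts and GRCm39. The methods of the study name STAR on mm9 with FPKM from Cufflinks, so the build of the counts could not be settled. Coordinates and lengths are those of GENCODE on NCBIM37 (mm9), and promoters are RefSeq on GRCm38.p6. Strand setting and annotation are not given in the sources used here. Symbols were found for 57.8% of identifiers. Total counts were 43393183 to 53754284 per library and 0 columns were left unused. At this depth the spread between mice (biological coefficient of variation 26.5%) limits all but the lowest genes, and counting error covers reads, not molecules.

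Genes passing filterByExpr (minimum count 10) were TMM-scaled and 17847 were tested by edgeR quasi-likelihood (4.0.16, R 4.3.3), two-sided, Benjamini-Hochberg adjusted, with 12 hearts and no covariate. Single genes were compared by an exact permutation test on log2(CPM + 1). The scripts were tested on simulated data. Alternatives were DESeq2 (1.42.0), total counts, no filter, 10 counts in every library, the replicate block, each mouse left out, ac-WT mice 2 and 3 left out, added paralog reads and a pseudocount of 0.1. Named genes are the members, Cyb5r3, paralogs, the first genes of each branch and the 5 genes most like Clu. Other complement genes and clusterin receptors with p under 0.01 were also to be named. Marker genes and further genes of the lists were named beside this rule. Cfi, C5ar2, Vtn, Colec11, Lrp8 and Fcna, like Cd93 and Lrp2, were named after their values were seen. A regulator that this rule names is not reported here. The members and all lists were chosen with earlier results of these data known. Mice sharing a number were separate animals whose departures from their group means correlated at 0.133 on average over 6 pairs (−0.160 to 0.360), so the numbers were not taken as pairs.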

Additional observations from a re-analysis of the deposited data

Results flagged for a closer look

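In 6 of 92 groups of 6 hearts checked, 1 value stood apart from the other 5 by Dixon's criterion, where chance gives about 1 in 20. Among the members, C3 in ac-WT mouse 6 was 252 CPM, with the other 5 hearts at 64.0 to 121 CPM, and Cd59a in ac-WT mouse 2 was 104 CPM, with the others at 50.4 to 69.9 CPM. In knockout mouse 6, C1qc was 159 CPM against 96.5 to 115 CPM in the others, and C3ar1 was 37.7 CPM against 17.4 to 22.02 CPM. Cd93, a receptor first described for C1q, was 146 CPM in ac-WT mouse 1 against 65.1 to 87.9 CPM. Lrp2 was 0.911 CPM in knockout mouse 2 against 0 to 0.254 CPM. Causes were not tested.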

How the results depend on the processing

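C3, C7, Cd59a and Masp1 kept their direction under all alternatives. Clu, whose rise chose the list, also stayed positive, which is a description only. Without ac-WT mice 2 and 3, which both had low TMM factors, C4b (−0.081), Serping1 (−0.19) and Cd55 (−0.16) turned negative. Leaving out 1 mouse gave −0.091 to 0.11 for Serping1 and −0.070 to 0.21 for Cd55. The Cyb5r3 value was −1.03 (edgeR adjusted p = 0.315) under total counts, −1.18 (adjusted p = 0.0999) with the replicate block and −1.31 to −1.08 over single omissions, of which those of ac-WT mice 3 and 5 and knockout mice 1 to 5 took the adjusted p over 0.05. Members other than Clu at p under 0.01 and higher fell from 1 to 0 without ac-WT mice 2 and 3, and were 0 to 1 over single omissions. The lower count was 0 under total counts. DESeq2 called 1 member, C7, at an adjusted p under 0.05. Other complement genes at p under 0.01 and higher were 1 (C5ar2) under the replicate block, and 0 to 1 in each direction over single omissions. The members with an exact permutation p under 0.05 were 3, but 1 under total counts, 1 without ac-WT mice 2 and 3, and 1 to 3 over single omissions. The replicate block changed no other call of a member. Over all genes, edgeR called 18 at an adjusted p under 0.05, DESeq2 451, the block 2, total counts 8, no filter 35, and single omissions 2 to 38. Cfi had no value at 10 counts in every library. The causes of these changes were not tested. Depth limits Cfd and, in part, the scarce genes, among them C7, Cfi, C6, Cd46 and Lrp2, and the spread between mice limits the others.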

Other observations

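ac-WT mouse 3 was among the 3 lowest hearts for 6 of the 9 members, ac-WT mouse 2 for 5 and ac-WT mouse 1 for 3, while knockout mice 2 and 3 were among the 3 lowest for 0. The knockout group varied less than ac-WT for several members, with an SD of 8.05 against 28.6 CPM for Serping1, 2.91 against 7.58 CPM for Cd55 and 6.12 against 19.8 CPM for Cd59a. The SD was larger in the knockout group for Clu, at 1241 against 644 CPM, and for Masp1, at 10.7 against 7.72 CPM. The means of both were also higher there, at 3084 against 1434 CPM and 30.1 against 14.3 CPM, and these SDs are not scaled to the mean. No test of these spreads was run.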
